A study of Mus musculus with 37 samples.

Results

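The cells described here carried transcripts of Hey2 and none of Hey1 within a culture of mouse embryonic fibroblasts that had been infected with a pool of factors. A Hey2 cell had at least 1 unique molecular identifier (UMI, a tag that marks 1 captured RNA molecule) of Hey2 and 0 of Hey1. By this rule 533 of 8565 cells were Hey2 cells. They were set against 533 cells of the same libraries with 0 UMIs of both genes, matched 1 to 1 on the total number of UMIs and called matched cells below. The cells were chosen by their Hey2, Hey1 and total counts, so the levels of both genes are given as a description and were not tested.

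Hey2 is a basic helix-loop-helix Orange repressor that acts downstream of the Notch receptors. Notch signalling releases the receptor's intracellular domain, which joins the DNA-binding protein Rbpj and activates Hes and Hey genes, and the Hey proteins in turn bind DNA as dimers and recruit corepressors. In the mouse heart Hey2 is known from the compact ventricular myocardium, where it represses atrial genes. Hey1, its closest relative, marks the atria.

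All samples belonged to 1 group. Fibroblasts of the ICR background were infected with retroviral vectors for 48 factors, Hey1 and Hey2 among them, and cells were taken at day 7 for Drop-seq, a droplet method that tags the RNA of single cells. The 37 samples were technical replicates of 1 biological replicate, so the p-values below measure the spread between libraries of 1 culture only. The series analysed here has no uninfected cells, so both the Hey2 cells and the matched cells came from the infected culture and could hold any other factor of the pool. A count of 0 does not show that a cell lacked the virus, and reads of the vector cannot be told apart from reads of the cell's own Hey2 gene (GRCm38 chromosome 10, 30832359 to 30842801, minus strand).

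Technical replicates 4 and 6 shared 59 cell barcodes, against at most 4 for any other pair, and were treated as 1 library. This gave 36 libraries with 70 to 548 cells, 637680 to 7921171 counts and a median of 3563 to 15695 counts per cell. The library names fell into 3 series, JD with 15 libraries, PZ47-PZ48 with 15 and PZ58 with 6. Defining transcripts of fibroblasts were found in most Hey2 cells: Col1a1 in 99.8% and Col3a1 in 97.6%, both fibrillar collagens, Vim, an intermediate filament, in 100%, and the surface protein Thy1 in 66.4%. Ptprc, the pan-leukocyte surface phosphatase, had a UMI in 0.188% of them.

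Hey2 was detected in 629 cells, 7.34% of all cells (95% exact binomial interval 6.80 to 7.92%), with 1400 UMIs in all. Hey1 was detected in 619 cells (7.23%). Both factors were present in 96 cells, which left 533 Hey2 cells (6.22%, interval 5.72 to 6.76%), 523 Hey1 cells and 7413 cells with neither. These intervals cover counting error only. Hey1 was found in 15.3% of the cells with a Hey2 UMI and in 6.59% of the cells without one, a difference that was not tested and in which depth could not be separated, since the median total was 14338 counts in Hey2 cells and 8010 in cells with neither factor.

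Hey2 transcripts were scarce in most of these cells. Just inside the limit of the rule lay 307 Hey2 cells (57.6%) with exactly 1 UMI, 111 had 2 UMIs and 115 had 3 or more, up to 25. The cells just outside it are the 7413 cells at 0. The median total was 12286 counts in Hey2 cells with 1 UMI, 13533 in those with 2 and 18380 in those with 3 or more. The corresponding median level of Hey2 was 81.4, 148 and 225 CPM (counts scaled to a fixed total). The Hey2 counts that define these classes also enter that level, so its order is fixed by the classes and is no result.

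Every library held Hey2 cells, from 4 to 43 with a median of 14. Their share per library ranged from 2.51 to 11.5%, with a median of 6.16% and a mean of 6.30 ± 1.82% (SD, n = 36). The share was 6.80% for the JD libraries, 5.68% for PZ47-PZ48 and 6.32% for PZ58. Among the 6742 cells with at least 5000 counts, Hey2 was detected in 8.51% as deposited and in 4.52% after each cell was thinned to 5000 counts.

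**Figure D1:**
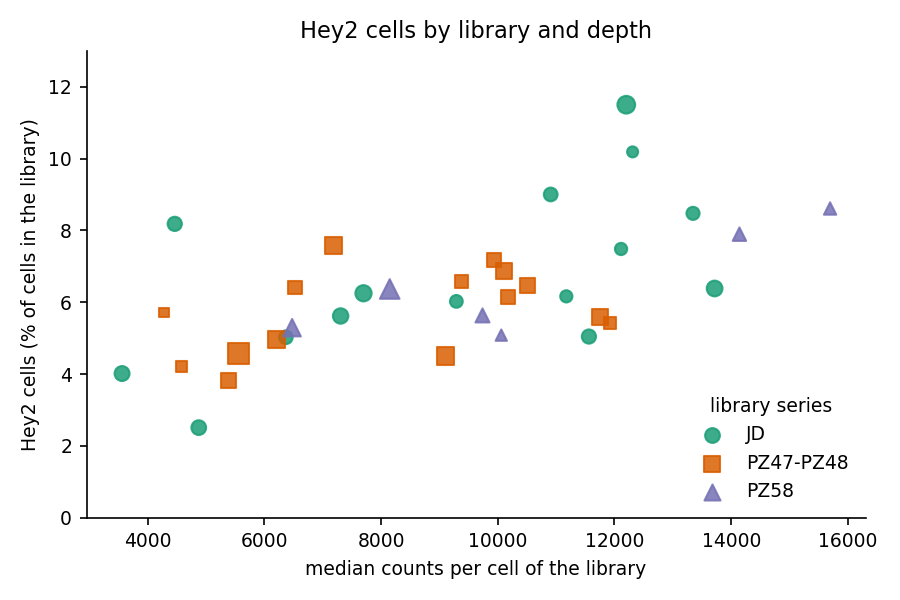
Share of Hey2 cells in each of 36 libraries (y axis, percent of cells) against the library's median counts per cell (x axis), with marker shape for the library series and marker area for the number of cells. Shares run from 2.51 to 11.5%, and all 3 series overlap.

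Free RNA in the droplets sets a limit on what a single UMI shows. Among 37 cells with at least 5 of 15 macrophage markers, a cell type that Hey2 does not mark, 3 had a Hey2 UMI (8.11%, interval 1.70 to 21.9%), against 7.34% of the other cells. The median totals were 8047 counts in the macrophage-marker cells and 8576 in the others. The share in these few cells was not below that in the fibroblasts, and droplets that only took up free Hey2 RNA, as well as infected macrophages, cannot be told apart from Hey2 cells at 1 UMI. For this reason the comparisons are also given for Hey2 cells with at least 2 UMIs.

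After matching, the Hey2 cells had a median of 14338 counts and the matched cells 14397. The summed counts were 11466092 in Hey2 cells and 11065612 in matched cells, over 533 pairs in 36 libraries.

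The first question was what else the Hey2 cells carried. Of the pool, 41 other factors had a row in the count tables, and 28 of them were rare, found in under 30% of all cells. Hey2 cells held 3.92 ± 1.20 of these rare factors and matched cells 3.44 ± 1.12 (mean of library means ± SD, n = 36 libraries). The difference of 0.480 ± 0.162 (SE) passed (adjusted p = 0.0178, two-sided sign-flip permutation test over libraries, adjusted over 4 measures). Hey2 cells were higher in 23 libraries and lower in 11. Over all 41 other factors the values were 12.19 ± 2.25 in Hey2 cells and 11.74 ± 2.14 in matched cells, which did not pass (adjusted p = 0.0655, same permutation test). With at least 2 UMIs of Hey2, the difference in rare factors was 1.02, 4.69 in Hey2 cells against 3.67 in matched cells (adjusted p = 0.00032, permutation test).

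The remaining measures of the cells did not pass the test. Hey2 cells had 4928 ± 933 genes detected per cell and matched cells 4896 ± 912 (adjusted p = 0.143, permutation test). Mitochondrial counts made up 0.582 ± 0.114% in Hey2 cells and 0.536 ± 0.117% in matched cells (adjusted p = 0.0655, permutation test).

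Mef2b and Isl1 were the factors found in more Hey2 cells. Mef2b, a MADS-box activator of the family that drives muscle genes, was detected in 22.9 ± 14.3% of Hey2 cells and 13.0 ± 10.6% of matched cells (SD, n = 36 libraries). The difference of 9.85 ± 2.64 percentage points (SE) passed (adjusted p = 0.0217, permutation test, adjusted over 41 factors), and Hey2 cells were higher in 22 libraries and lower in 8. Isl1, a LIM-homeodomain factor of second heart field progenitors, was detected in 9.90 ± 8.16% of Hey2 cells and 4.03 ± 6.52% of matched cells. Its difference of 5.88 ± 1.74 points passed too (adjusted p = 0.0387, permutation test), with 19 libraries higher and 4 lower. The level of Mef2b over the same pairs did not pass (log2 fold change 0.59 ± 0.27, edgeR adjusted p = 0.912). It was higher in Hey2 cells in 20 libraries and lower in 16. Mef2b overlaps Borcs8 in the annotation, and how reads in the overlap were assigned is not given in the sources used here.

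The factors next in order did not pass over all pairs. Nkx2-5, a homeobox factor of early heart cells, was in 8.94 ± 8.30% of Hey2 cells and 4.42 ± 6.18% of matched cells (adjusted p = 0.187, permutation test). Without the 5% of cells with the most UMIs, Nkx2-5 passed beside Mef2b and Isl1, with a difference of 4.62 points, 19 libraries higher and 4 lower (adjusted p = 0.0408, permutation test). Mef2c was in 34.6 ± 13.4% of Hey2 cells and 27.5 ± 14.3% of matched cells (adjusted p = 0.226, permutation test). Foxn4, a forkhead factor, was in 10.1 ± 8.05% of Hey2 cells and 5.84 ± 7.54% of matched cells (adjusted p = 0.239, permutation test). The most negative differences were those of Tcf3, with 55.7% of Hey2 cells and 60.1% of matched cells, and Smarcd3, with 61.4% of Hey2 cells and 65.7% of matched cells, and neither passed. After each pair was thinned to equal counts, Mef2b kept its call (difference 9.60, adjusted p = 0.0332, permutation test) and Isl1 lost it (5.58, adjusted p = 0.0668, permutation test). With at least 2 UMIs of Hey2, Mef2b again passed (16.5 points, adjusted p = 0.0287, permutation test) and Isl1 did not (8.69 points, adjusted p = 0.192, permutation test).

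**Figure D2:**
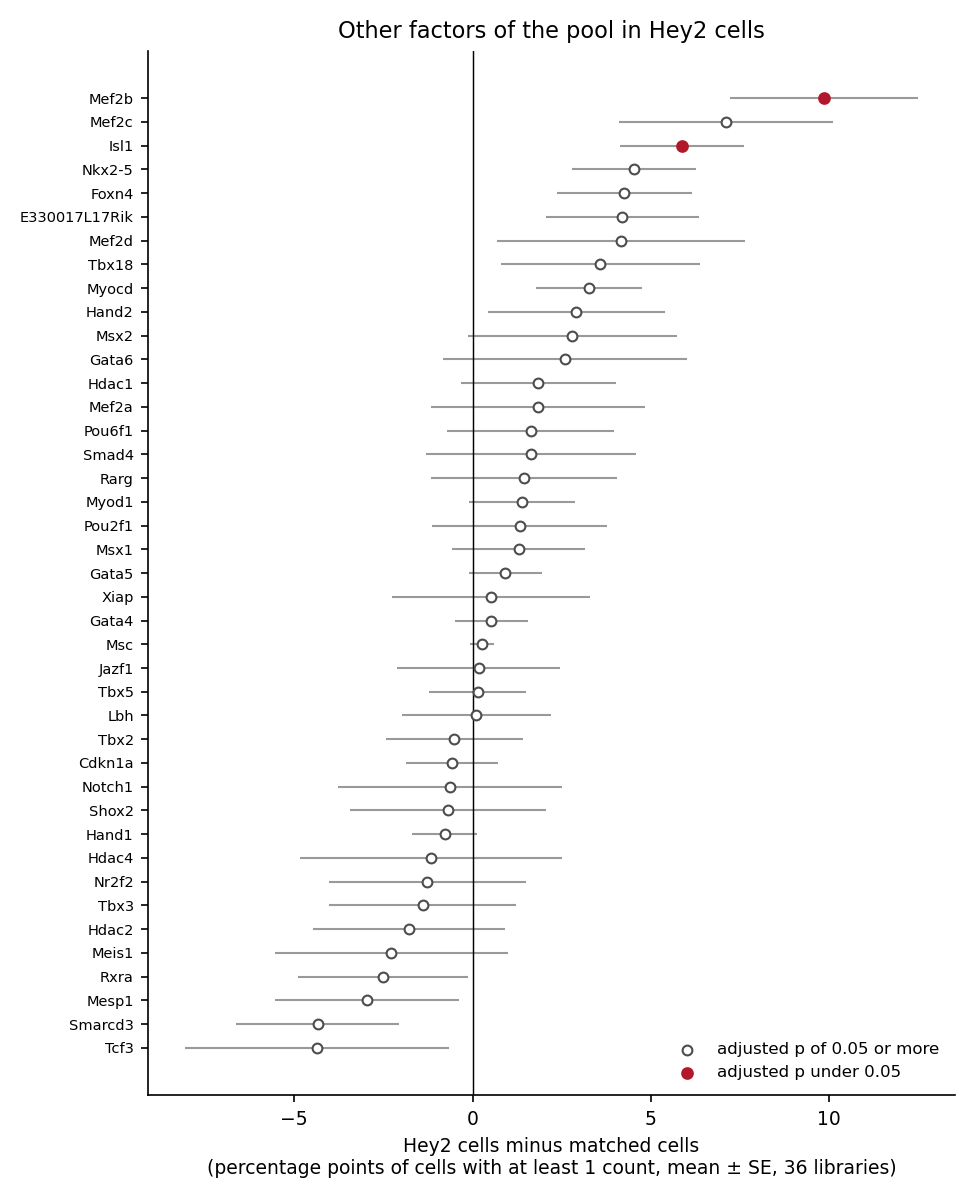
Difference in the share of cells with each of 41 other pool factors, Hey2 cells minus matched cells, in percentage points (x axis; points are means over 36 libraries and bars are SE). Mef2b at 9.85 and Isl1 at 5.88 (filled) had an adjusted p under 0.05 in the permutation test.

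Across all genes, the Hey2 cells differed little from the matched cells. Of 14175 genes tested with edgeR's quasi-likelihood test, 1 was higher in Hey2 cells at a Benjamini-Hochberg adjusted p under 0.05 (0.00705% of the genes tested) and 0 were lower (0%). At an unadjusted p under 0.05 there were 749 genes, 5.28% of those tested. DESeq2 called 2 genes higher and 0 lower. On counts simulated for this comparison, with 14027 genes, the same edgeR test recovered 93 of 100 genes changed 2-fold and 100 of 100 changed 4-fold, with 4 false calls, where the changed genes had at least 100 counts. Every simulated gene had a dispersion of 0.05, and simulated libraries differed only in total counts. The recovery therefore does not show how many changed genes with a wider spread between libraries would be missed.

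The gene that rose was Gm26880, a long non-coding RNA of unknown function annotated at GRCm38 chromosome 4, 146509094 to 146511764, minus strand. It had 20.2 ± 17.5 CPM in Hey2 cells and 6.48 ± 6.93 CPM in matched cells (SD, n = 36 libraries). Over the libraries its level ran from 0 through a median of 14.0 to 67.5 CPM in Hey2 cells, and from 0 through 5.60 to 23.7 CPM in matched cells. The ranges overlap, and Hey2 cells were higher in 30 libraries, lower in 4 and equal in 2. The log2 fold change was 1.48 ± 0.27 (SE, 95% interval 0.95 to 2.01, edgeR adjusted p = 0.0238). It rests on 200 counts in 105 Hey2 cells (19.7%) and 70 counts in 40 matched cells (7.50%), and no cell held more than 14 of them.

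Gm26880 lay above 0 in each series, with log2 fold changes of 1.88 for the JD libraries, 1.25 for those of PZ47-PZ48 and 1.35 for PZ58, and it passed in none of them alone. Leaving out 1 library at a time gave 1.38 to 1.63. The call held in 31 of 36 such fits and was lost without the library of technical replicate 4 (edgeR adjusted p = 0.0642), 9 (0.0515), 15 (0.0584), 22 (0.0550) or 24 (0.0526).

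The level of Gm26880 was higher in cells with more Hey2 UMIs. It was 7.07 CPM in the summed cells without a Hey factor, 10.6 CPM in Hey2 cells with 1 UMI, 17.2 CPM with 2 UMIs and 31.2 CPM with 3 or more. The shares of cells with Gm26880 in the same order were 5.48%, 12.1%, 23.4% and 36.5%. Median totals rose in that order too, with 8010, 12286, 13533 and 18380 counts, and the part of depth in these shares was not tested. In the matched cells the share was 7.50% and the summed level 6.33 CPM. Against newly matched cells, the log2 fold change of Hey2 cells with at least 2 UMIs was 2.13 ± 0.37 (edgeR adjusted p = 0.00474, 220 pairs in 33 libraries). Of 13040 genes, 2 were then called higher (0.0153%) and 0 lower (0%), with 583 (4.47%) at an unadjusted p under 0.05. Hey2 cells with exactly 1 UMI, a comparison chosen after seeing the data, had 0.93 ± 0.43 and did not pass.

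Gm26880 was also highest in cells with the most other factors. In Hey2 cells its level was 15.5 CPM with 0 rare factors, a value that rests on 4 counts in 33 cells. It was 7.52 CPM with 1, 5.73 CPM with 2, 10.8 CPM with 3 and 22.9 CPM with 6 or more. In cells without a Hey factor it was 1.84 CPM with 0 rare factors, 5.65 CPM with 3 and 11.6 CPM with 6 or more. Median totals were 6120 counts with 0 rare factors and 30769 with 6 or more in Hey2 cells. In cells without a Hey factor they were 5126.5 and 26297.5, and the part of depth was not tested. Hey2 cells with 3 or more UMIs carried a mean of 5.34 rare factors, those with 1 UMI 3.39 and the cells without a Hey factor 2.53. When cells were matched on the number of rare factors as well as on total counts, the log2 fold change was 1.59 (edgeR adjusted p = 0.00119).

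Cells with Isl1 were rich in Gm26880. It stood at 42.9 CPM in all cells with Isl1 and 6.55 CPM in cells without. Cells with Isl1 carried a mean of 5.27 rare factors and had a median total of 12655 counts. Cells without Isl1 carried 2.64 and had 8439. These sets were not matched, and the part of depth or of other factors in the difference was not tested. With all cells holding Isl1, Mef2b or Foxn4 left out of both sets, a setting chosen after seeing the data, 354 pairs in 33 libraries remained. The log2 fold change was then 1.42 ± 0.42, close to the value over all pairs, but no gene passed (edgeR adjusted p = 0.386).

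**Figure D3:**
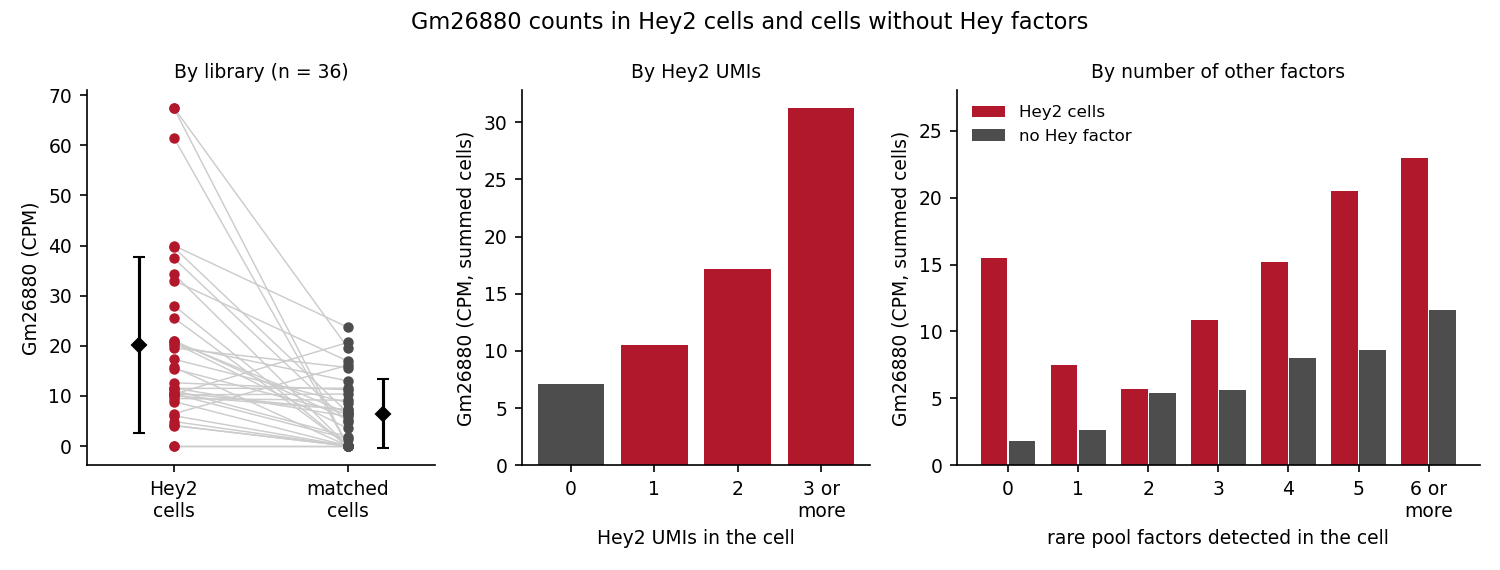
Gm26880 in CPM (y axes): left, each of 36 libraries with Hey2 cells and matched cells joined by a line, diamonds and bars giving mean ± SD; middle, summed cells by Hey2 UMIs per cell; right, summed cells by the number of rare pool factors, Hey2 cells beside cells without a Hey factor. The level is 31.2 CPM in Hey2 cells with 3 or more UMIs and 7.07 CPM at 0, and it also runs higher with more factors in cells without Hey.

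Reads of Gm26880 may not all come from its locus. The gene overlaps Gm26573 and Zfp981 in the annotation. Its transcript of 1318 bases resembles, at 90% identity or more over at least 200 bases, transcripts of 14 other genes, 10 of them on the opposite strand only. Of these genes 5 had a row and were tested, and 0 were called. Among them Chd9 had a log2 fold change of -0.01, Apobec3 -0.06 and Cep85 0.19. The strand setting and the treatment of multiply mapped reads are not given in the sources used here, so how reads were shared among these copies is uncertain.

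The 10 genes next in order of p did not pass, and their values are a description of that order. Hspb7, a small heat shock protein of heart and skeletal muscle, came first. Its level ran from 0 through a median of 33.7 to 135 CPM in Hey2 cells and from 0 through 15.7 to 119 CPM in matched cells. Hey2 cells were higher in 29 libraries and lower in 6, and the log2 fold change was 0.95 ± 0.19 (edgeR adjusted p = 0.0765). DESeq2 called it (log2 fold change 1.00, adjusted p = 0.0456). In edgeR it was 0.64 with matching on rare factors (adjusted p = 0.818) and 0.78 without cells holding Isl1, Mef2b or Foxn4 (adjusted p = 0.441). Without cells highest in markers of other cell types it was called (1.16, edgeR adjusted p = 0.0393). Of its 469 counts in Hey2 cells, 57 came from 1 cell.

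Among the rest were genes of pigment cells, transport and lipid synthesis. Mlana, a melanosome protein, averaged 13.9 CPM in Hey2 cells and 4.33 CPM in matched cells, and Myo5c, an unconventional myosin, 6.14 CPM in Hey2 cells and 1.66 CPM in matched cells. Their log2 fold changes were 1.49 ± 0.31 for Mlana and 1.75 ± 0.40 for Myo5c. With matching on the number of rare factors they were 0.74 and 1.02, and without cells holding Isl1, Mef2b or Foxn4 0.74 and 0.65, in the same order. Fasn, the fatty acid synthase, averaged 71.9 ± 22.2 CPM in Hey2 cells and 95.7 ± 31.7 CPM in matched cells and was lower in Hey2 cells in 28 libraries (log2 fold change -0.42 ± 0.10, edgeR adjusted p = 0.213; -0.27 with matching on rare factors). Gap43, a growth cone protein, averaged 36.1 CPM in Hey2 cells and 64.4 CPM in matched cells (-0.80 ± 0.19). Parm1, a mucin-like membrane protein, averaged 111 CPM in Hey2 cells and 71.6 CPM in matched cells (0.65 ± 0.16), and Cdk11b, a cyclin-dependent kinase, 222 CPM in Hey2 cells and 264 CPM in matched cells (-0.25 ± 0.06).

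The last of these genes rest on few cells. Klk1b26 had 1 count in Hey2 cells and 118 in matched cells, 97 of them in 1 cell, and it belongs to a family of near-identical kallikreins. Cilp, a cartilage protein, had 33 counts in 11 Hey2 cells and 1 count in matched cells. Isl1 itself had 150 counts in 51 Hey2 cells and 46 in 21 matched cells (log2 fold change 1.63 ± 0.41, edgeR adjusted p = 0.328).

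The Notch pathway, in which Hey2 acts, gave no call. Of its ligands 4 genes were tested, with a median log2 fold change of -0.03, of its receptors and core components 22, with a median of -0.02, and of its targets 9, with a median of 0.05. Over all genes tested the median was -0.00028. None of these 35 genes passed, and 3 had an unadjusted p under 0.05. Over all 14175 genes tested, 1 was called (0.00705%) and 749 (5.28%) had an unadjusted p under 0.05. The lack of a call in this list and those below is therefore no result about their genes.

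Members of the pathway lay on both sides of 0. Hes1, the prototype Notch target, had a median of 168 CPM in Hey2 cells and 204 CPM in matched cells and was lower in Hey2 cells in 24 libraries (log2 fold change -0.20 ± 0.08, unadjusted p = 0.0183, adjusted p = 0.841 in edgeR). Rbpj, the DNA-binding partner of the Notch intracellular domain, had a median of 24.7 CPM in Hey2 cells and 36.6 CPM in matched cells (-0.38 ± 0.13, unadjusted p = 0.00404, adjusted p = 0.598 in edgeR). Hey2 cells were lower in Rbpj in 25 libraries and higher in 11, and the fold change was below 0 in each series. Neither gene passed.

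Heyl, the third member of the Hey family, had 76 counts in Hey2 cells and 27 in matched cells, and 29 of the 76 came from 1 cell (log2 fold change 0.87 ± 0.47). Jag1, a ligand, had a log2 fold change of 0.22 ± 0.15, Notch3, a receptor of vascular smooth muscle, 0.11 ± 0.27, and Notch1, a receptor that was itself in the pool, -0.06 ± 0.20. Nrarp, a feedback inhibitor of Notch, had fewer than 20 counts and was not tested.

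Genes that work with Hey2 gave no call either. The corepressors, 18 genes tested, had a median log2 fold change of -0.0015, and the basic helix-loop-helix partners and Id genes, 17 tested, 0.05. Tle4, a Groucho-type corepressor, averaged 15.3 CPM in Hey2 cells and 10.2 CPM in matched cells (log2 fold change 0.53 ± 0.20, unadjusted p = 0.0113). Id4, an inhibitor of helix-loop-helix dimers, averaged 21.4 CPM in Hey2 cells and 14.6 CPM in matched cells (0.50 ± 0.20, unadjusted p = 0.0152). Their edgeR adjusted p was 0.819 for Tle4 and 0.841 for Id4.

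Chamber genes of the heart, among which Hey2 is known to act, gave 12 genes tested, a median of 0.15 and no call. Nppa, the atrial natriuretic peptide, had 190 counts in Hey2 cells and 32 in matched cells (log2 fold change 1.23 ± 0.51, unadjusted p = 0.0207, edgeR). Yet Nppa was higher in Hey2 cells in 13 libraries and lower in 13. Its median over libraries was 0 CPM in Hey2 cells and 0.873 CPM in matched cells, with a highest value of 573 CPM in 1 library of Hey2 cells and 26.5 CPM in matched cells. Gja5, the connexin of atria and conduction tissue, averaged 9.88 CPM in Hey2 cells and 4.49 CPM in matched cells and was higher in 20 libraries and lower in 6 (log2 fold change 1.12 ± 0.47, unadjusted p = 0.0208). Myl2, the ventricular light chain, had 12 counts in Hey2 cells and 27 in matched cells, and Myl7, its atrial counterpart, 10 counts in Hey2 cells and 19 in matched cells.

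**Figure D4:**
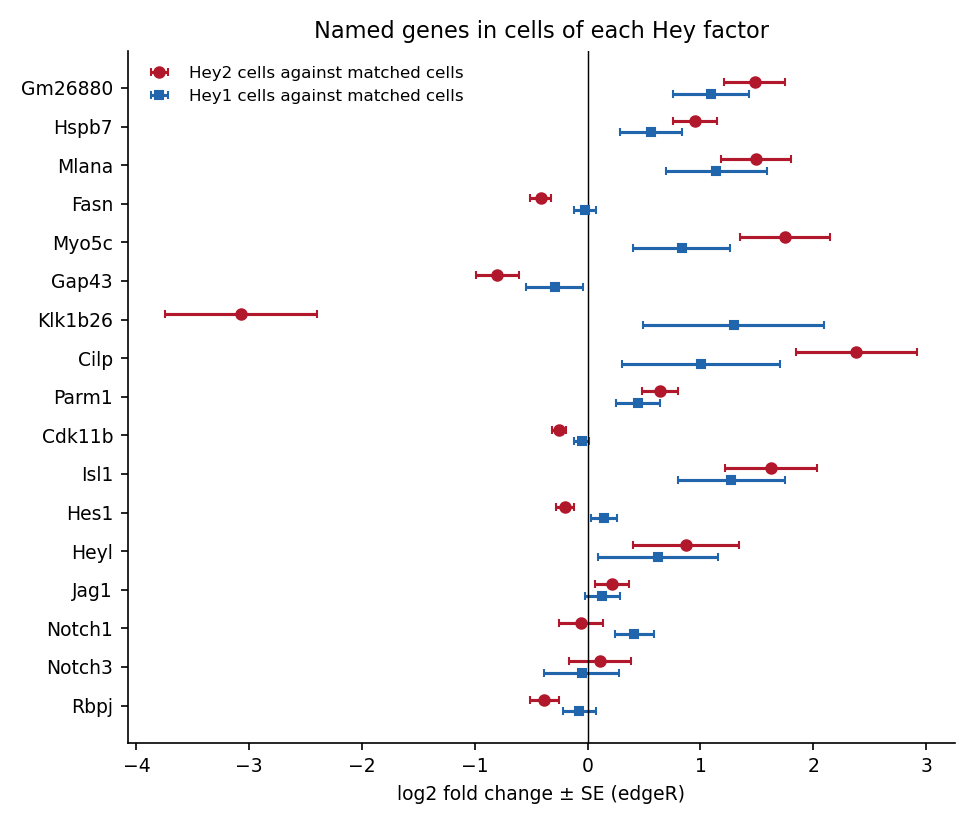
Log2 fold change ± SE from edgeR (x axis) of the 17 named genes in Hey2 cells against their matched cells (circles) and in Hey1 cells against theirs (squares). Gm26880 was the only one of them past the threshold for Hey2, at 1.48, and both sets of matched cells were drawn from the same cells without Hey factors.

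Cell type and cell cycle lists were described in the same way, and 0 members of any of the 25 lists were called. The 28 cardiomyocyte genes tested had a median of 0.12, the 20 smooth muscle genes 0.08, the 25 fibroblast genes -0.07 and the 23 skeletal muscle genes -0.24. Of 20 genes of S phase, 19 had a fold change below 0 (median -0.21), while the 24 genes of G2 and M phase had a median of 0.05. Mcm6, a subunit of the replicative helicase, averaged 54.3 CPM in Hey2 cells and 73.5 CPM in matched cells, lower in Hey2 cells in 20 libraries and higher in 16. The genes of a list share cells and move together, so these counts are no test.

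Markers of other cells in the culture were compared too. The 7 epithelial genes tested were all above 0 (median 0.44), and their sum ran from 15.8 to 1437 CPM in Hey2 cells and from 66.2 to 1169 CPM in matched cells, higher in Hey2 cells in 27 libraries. Krt18, a keratin of simple epithelia, averaged 232 ± 304 CPM in Hey2 cells and 110 ± 151 CPM in matched cells (log2 fold change 0.90 ± 0.37, unadjusted p = 0.0188, edgeR). The 8 macrophage genes tested had a median of 0.26, with sums of 0 to 1186 CPM in Hey2 cells and 0 to 587 CPM in matched cells. The sums of the 27 skeletal muscle markers were 26.6 to 8586 CPM in Hey2 cells and 39.1 to 3885 CPM in matched cells, higher in Hey2 cells in 21 libraries and lower in 15. Without the cells highest in skeletal muscle, mesothelium, macrophage or glia markers, the fold change of Gm26880 was 1.42 ± 0.33 on the log2 scale and did not pass (edgeR adjusted p = 0.0820).

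**Figure D5:**
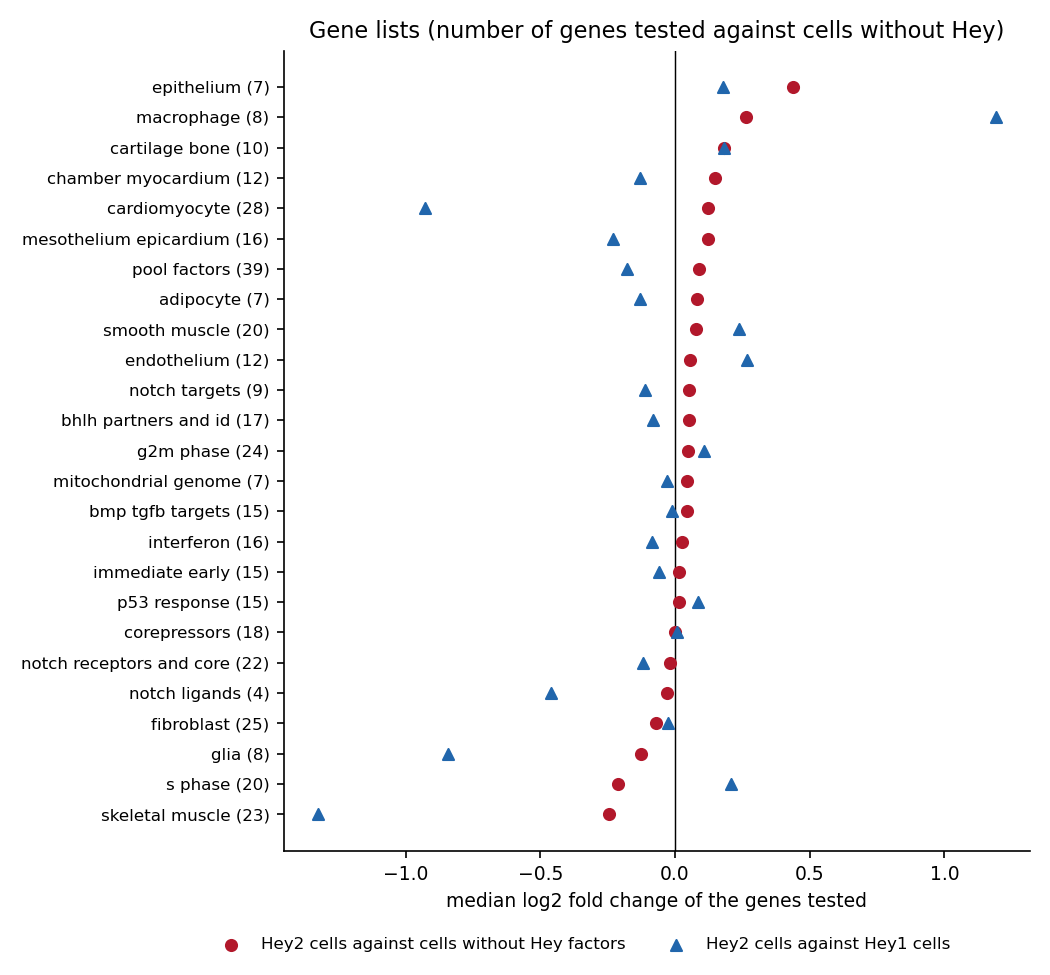
Median log2 fold change (x axis) of each of 25 gene lists, in Hey2 cells against matched cells without Hey factors (circles) and against Hey1 cells (triangles), with the number of genes tested in the first comparison in brackets. Both comparisons use the Hey2 cells, and the skeletal muscle list lies at -0.24 in the first and -1.33 in the second.

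The Hey2 cells were then set against cells of the other Hey factor directly, with 439 pairs in 35 libraries. Of 13923 genes tested with edgeR, 0 were higher in Hey2 cells (0%) and 4 were lower (0.0287%). At an unadjusted p under 0.05 there were 760 (5.46%), and DESeq2 called 0. All 4 are genes of striated muscle: Mb, the oxygen-binding myoglobin, Apobec2, a muscle member of the cytidine deaminase family, Lmod3, a leiomodin of skeletal thin filaments, and Myl1, a fast skeletal myosin light chain.

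Mb averaged 9.35 ± 22.5 CPM in Hey2 cells and 42.2 ± 94.4 CPM in Hey1 cells (SD, n = 35 libraries), with medians of 0 in both. Myl1 averaged 30.7 ± 104 CPM in Hey2 cells and 120 ± 322 CPM in Hey1 cells, with medians of 4.68 CPM in Hey2 cells and 6.81 CPM in Hey1 cells. The log2 fold changes were -2.47 ± 0.46 for Mb, -2.67 ± 0.52 for Apobec2, -2.06 ± 0.42 for Lmod3 and -2.66 ± 0.55 for Myl1, each with an edgeR adjusted p of 0.0484. Hey2 cells were lower in 16 to 19 of the 35 libraries, higher in 7 to 11 and equal in the others, depending on the gene.

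Few cells carried these transcripts. Mb had 59 counts in 16 Hey2 cells and 413 counts in 27 Hey1 cells, and Apobec2 23 counts in 15 Hey2 cells and 240 in 29 Hey1 cells. A single Hey1 cell held 108 of the 240 Apobec2 counts, and a single Hey1 cell held 491 of the 1356 Myl1 counts. The library of technical replicate 16 held the most counts of both genes in Hey1 cells, 108 of Apobec2 and 495 of Myl1. For Mb this was the library of replicate 36 and for Lmod3 that of replicate 28. Leaving out replicate 16 gave the highest edgeR adjusted p for each of the 4 genes, 0.172. The 4 calls were absent with another random order of matching (edgeR adjusted p = 0.0890 to 0.0940) and in DESeq2, where the log2 fold changes were -1.42 to -0.94. Leaving out 1 library at a time, a check added after seeing the data, kept the calls in 24 of 35 fits for Mb, 21 for Apobec2, 17 for Lmod3 and 15 for Myl1.

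The muscle lists of this comparison are given as a description. All 23 skeletal muscle markers tested were below 0, with a median of -1.33, and 18 of them had an unadjusted p under 0.05, a mark that 5.46% of all genes passed. Myl1 was the one called. The genes of a list share cells and move together, so these counts and those of the lists that follow are no test. Of 25 cardiomyocyte genes tested, 19 were below 0 (median -0.93) and 11 had an unadjusted p under 0.05. Of 20 smooth muscle genes, 3 were below 0 (median 0.24) and 12 had an unadjusted p under 0.05, and the summed level of the list was higher in Hey2 cells in 26 libraries and lower in 9. The sum of the 27 skeletal muscle genes had a median of 184 CPM in Hey2 cells and 230 CPM in Hey1 cells and was lower in Hey2 cells in 22 libraries and higher in 13. Myod1, the master regulator of skeletal muscle and a factor of the pool, was found in 7.06% of Hey2 cells and 7.97% of Hey1 cells, with 61 counts in Hey2 cells and 162 in Hey1 cells. Of these, 1 Hey2 cell held 13 of the 61 counts and 1 Hey1 cell held 46 of the 162. The part of Myod1 in the difference was not tested.

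For Gm26880 the direct comparison gave no call. Its log2 fold change between Hey2 cells and Hey1 cells was 0.25 ± 0.30 (edgeR adjusted p = 1). Against their own matched cells, Hey2 cells had 1.48 ± 0.27 and Hey1 cells 1.09 ± 0.33, and the pool of cells without Hey factors is shared by both. Hspb7 had 0.95 ± 0.19 in Hey2 cells and 0.56 ± 0.28 in Hey1 cells, with 0.09 ± 0.27 between them. In Hey1 cells 1 gene of 14125 was called lower (0.00708%) and 0 higher (0%), namely Fbln5, an elastic fibre protein, and 952 (6.74%) had an unadjusted p under 0.05. The log2 fold change of Fbln5 was -0.40 ± 0.10 in Hey2 cells (edgeR adjusted p = 0.352) and -0.47 ± 0.08 in Hey1 cells (adjusted p = 0.0147).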

How the data were processed

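Drop-seq counts of 37 technical replicates were read from the deposited tables, which hold UMI counts per gene and cell barcode, per the labels. The tools named in the submitters' processing notes are STAR 2.5.3a, featureCounts 1.5.3, UMI-tools and bcl2fastq 2.17.1.14, with build mm10. Strand and multimapping settings are not given in the sources used here. From 8730 barcodes, 88 shared between tables and 77 that differed by 1 base were removed, and the lowest total among the 8565 kept was 1610. Of 27998 gene rows, 27645 had a symbol. No doublet caller was run, and an alternative left out the 5% of cells with the most UMIs.

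Hey2 cells were paired within library, without replacement, with the cell nearest in log total (random order, seed 1). Counts were summed per library and set, which puts the same library in both sets, so the library was a block. Genes with at least 20 counts were tested with edgeR 4.0.16 (quasi-likelihood, TMM), Benjamini-Hochberg adjusted at 0.05, with Hey1 and Hey2 left out, and with DESeq2 1.42.0 as an alternative. SE is the fold change over the root of F, intervals are 1.96 SE. Values per library were tested with 100000 sign-flip permutations. Fits without 1 library kept the dispersion trend of all libraries. The edgeR test was tested on simulated data. Positions come from GENCODE M21, and similar transcripts from blastn 2.17.0.

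The members and gene lists were chosen with earlier results of these data known. Named genes are those past the threshold, the 10 smallest p-values beside them and 7 Notch genes, and list members named beyond these were chosen after their values were seen. Promoter motifs were not counted, because 1 gene was called. The comparison with Hey1 cells used the same steps.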

Additional observations from a re-analysis of the deposited data

Results flagged for a closer look

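The 4 genes called between Hey2 cells and Hey1 cells were taken up because the difference itself was tested. The log2 fold changes were -2.47 for Mb, -2.67 for Apobec2, -2.06 for Lmod3 and -2.66 for Myl1, Hey2 cells over Hey1 cells, with an edgeR adjusted p of 0.0484 each. All 4 calls were lost with another random order of matching (edgeR adjusted p = 0.089 to 0.094) and in DESeq2. With 1 library left out at a time they held in 15 to 24 of 35 fits, depending on the gene.

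Cells with both Hey factors stood outside the comparisons. In the 96 such cells Gm26880 had 75 counts and 22.5 CPM, found in 45.8% of them (95% exact interval 35.6 to 56.3%), against 7.07 CPM and 5.48% in cells without a Hey factor. Their median total was 25293 counts and they carried a mean of 6.10 rare factors, against 8010 counts and 2.53 rare factors in cells without a Hey factor.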

How the results depend on the processing

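In Hey2 cells against cells without Hey factors, where 1 gene was higher and 0 lower, the count of genes higher was 2 in DESeq2, 80 with a minimum of 1 count, 22 with no replicate block, 3 without the 5% of cells with the most UMIs, 5 without cells highest in markers of other cell types, 2 with at least 2 UMIs of Hey2, 4 with cells holding Hey1 kept, 7 in series JD, and 0 in PZ47-PZ48, in PZ58, in either read class and, added after seeing the data, without cells with Isl1, Mef2b or Foxn4. The count lower was 38 with a minimum of 1 count, 26 with no replicate block, 1 with matching on rare factors, 2 without the 5% deepest cells, 3 without marker cells, 1 with Hey1 kept, 6 in JD and 2 in PZ47-PZ48. Leaving out 1 library gave 0 to 2 higher and 0 lower. Hey2 cells against Hey1 cells gave 15 higher and 38 lower with no replicate block, 0 lower with matching seed 2 and 0 lower in DESeq2. Leaving out 1 library there gave 0 to 2 higher and 0 to 20 lower, with 0 lower without replicate 4, 5, 7, 15, 16, 27, 29, 30, 32, 33 or 36, and 20 lower without replicate 34. The difference in all other pool factors passed without the 5% deepest cells (0.504) and with at least 2 UMIs (1.04), and the factors in a higher share of Hey2 cells numbered 3 without the 5% deepest cells, 1 with thinned pairs and 1 with at least 2 UMIs, against 2 over all pairs. Signs turned for Cdk11b (0.021) and Hes1 (0.0020) in PZ58, Jag1 (-0.020) with matching on rare factors, Notch1 with no replicate block (0.023), at least 2 UMIs (0.21), JD (0.17), PZ58 (0.27) and the high read class (0.13), and Notch3 in PZ47-PZ48 (-0.55) and the low read class (-0.084). None of these genes passed in any of those fits. The cause of these shifts was not tested, except that subsets hold fewer samples and cells. Of 383 values of named genes and shares under alternatives, 327 kept direction and call. Of the 17 named genes only Gm26880 had passed over all pairs. For the other named genes a kept call means that the gene again did not pass. With 57.6% of Hey2 cells at 1 UMI, depth limits who is counted as a Hey2 cell.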

Other observations

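Some other genes were called under alternative choices of cells, and those given here were named after their values were seen. Krt8, the partner of Krt18 in the filaments of simple epithelia, was called in Hey2 cells with at least 2 UMIs (log2 fold change 3.88 ± 0.51, edgeR adjusted p = 7.3e-05). It had 366 counts in 18 of 220 Hey2 cells and 13 counts in 10 of 220 matched cells, and 150 of the 366 came from 1 cell. Its median over 33 libraries was 0 CPM in both sets, and over all Hey2 cells its log2 fold change was 1.24 ± 0.57 (adjusted p = 0.935). Krt18 in the same 220 Hey2 cells averaged 298 ± 487 CPM and 123 ± 303 CPM in matched cells, and did not pass (edgeR adjusted p = 0.610).

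Tac2, a tachykinin precursor, was called in Hey2 cells with exactly 1 UMI (3.64 ± 0.62, edgeR adjusted p = 0.0225), with 88 counts in 9 Hey2 cells, 46 of them in 1 cell, and 1 count in matched cells. Elobl passed without the deepest cells, without marker cells, with cells holding Hey1 kept and in series JD. Gap43, Nid2 and Hspb7 passed with cells holding Hey1 kept as well. Cyp11a1, the side-chain cleavage enzyme of steroid synthesis, was called lower in the same 533 Hey2 cells matched on rare factors (-4.57 on the log2 scale, edgeR adjusted p = 0.0285). It was also called lower without marker cells and in series PZ47-PZ48. Over the first matching Cyp11a1 had 3 counts in Hey2 cells and 162 in matched cells and did not pass (-2.30 ± 0.72, edgeR adjusted p = 0.611). Over all Hey2 cells Elobl averaged 99.1 ± 180 CPM, against 28.1 ± 49.3 CPM in matched cells (1.46 ± 0.37 on the log2 scale, edgeR adjusted p = 0.328).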
